A study of Mus musculus with 4 samples.

Results

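The genes described here are those of endosomal sorting whose mouse symbols begin with Vps, Snx or Chmp followed by a digit, in cultures of mouse sensory neurons. They were picked by that pattern in the gene descriptions of the deposited table, which gave 68 genes of the 11258 in the series, 33 of them Vps, 26 Snx and 9 Chmp. The table lists 75 transcripts of these genes by description and a further Vps29 transcript that was named through its accession, 76 in all. The RefSeq table of assembly GRCm38.p6 holds 75 protein-coding genes of this naming, of which Vps35l and Vps26c stand in the deposited table under the older names 9030624J02Rik and Dscr3 and were kept outside the set. Chmp4c, Snx20, Snx24, Snx31 and Snx33 were not analysed here.

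The study profiled polyadenylated RNA from dissociated dorsal root ganglion cultures of E13.5 mouse embryos. Nerve growth factor was present in both groups, as were fluorodeoxyuridine and uridine, given against dividing cells, and both groups received lentivirus on day 2 in vitro. The protocols also describe replating on day 5 for an assay, and do not say whether the sequenced cultures were replated. The 2 control libraries came from cultures given the control pLKO virus, and the 2 PROM1 libraries from cultures given virus carrying human PROM1, also called CD133, a membrane glycoprotein of cell protrusions. Per the series text the duplicates are biological. The sources used here give neither the mouse strain, nor the promoter driving PROM1, nor the share of cells infected. PROM1 transcripts were not analysed here, and whether they were raised was not checked.

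Endosomes sort membrane proteins between the lysosome, the cell surface and the Golgi. The ESCRT complexes (endosomal sorting complexes required for transport) gather ubiquitinated cargo and bud it into vesicles inside the endosome, with ESCRT-I and ESCRT-II upstream, the Chmp proteins forming the ESCRT-III filament that closes the neck, and the ATPase VPS4 taking the filament apart. Retromer and the sorting nexins, which bind phosphoinositides through a PX domain, carry cargo back out of the endosome, and the HOPS, CORVET, GARP and EARP complexes tether vesicles before fusion. In neurons this traffic moves receptors and adhesion proteins between axon and cell body.

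Expression was given as FPKM, which scales fragments to transcript length and library size, summed over the listed transcripts of a gene. FPKM of all genes summed to between 356985 and 384213 per library. Listed transcripts at exactly 0 numbered 89 and 283 in control libraries 1 and 2 and 121 and 237 in PROM1 libraries 1 and 2. The 9 sensory neuron markers looked at (Isl1, Pou4f1, Prph, Nefl, Nefm, Tubb3, Calca, Tac1 and Scn9a) were all listed, at a summed 2285 and 2574 FPKM in the control libraries and 2135 and 2593 FPKM in the PROM1 libraries. Of these 9 markers 6 had lower and 3 higher means in PROM1, with a median log2 change of -0.20. Of 9 markers of Schwann cells and satellite glia 5 were listed, at a sum of 76.5 and 56.3 FPKM in control and 44.7 and 45.9 in PROM1, and all 5 had lower means in PROM1. Fibroblast markers (3 of 7 listed) summed to 2.67 and 4.37 FPKM in control and 7.94 and 8.48 in PROM1. The 2 listed macrophage markers summed to 3.80 and 3.51 FPKM in control and 1.79 and 1.99 in PROM1, and the 1 listed endothelial and pericyte marker, Acta2, was at 3.63 and 3.83 FPKM in control and 3.43 and 1.51 in PROM1. No listed marker was at 0 in every library.

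Most endosomal sorting genes had similar mean levels in PROM1 and control cultures, 61 of 66 within 1.5-fold, and no single member passed the test over all genes. The share of all genes within 1.5-fold was not counted. The median absolute log2 change was 0.19 for members and 0.23 over all genes tested, so small changes were not particular to the members. The members with an unadjusted p under 0.05 were the sorting nexin Snx7, at a 2.29-fold lower level in PROM1 cultures, and the tethering subunit Vps50, at a 2.47-fold higher level. Both values are on the log2(FPKM + 1) scale, on which differences at low levels come out too small. Vps50 averaged 0.486 FPKM in control and 2.52 in PROM1, so it reached the level for testing only through the group where it was high. The 5 members outside 1.5-fold on this scale were Vps50, Snx29 (2.36-fold higher), Snx7, Chmp1b and Snx6. Low members can fall inside it through the added 1, as Vps45 did with means of 1.64 FPKM in control and 2.81 in PROM1. In bulk cultures fewer cells of a type and less RNA per cell cannot be told apart.

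Of the 68 members, 66 averaged 1 FPKM or more across libraries and were tested with limma across all 10108 such genes. Snx13 and Snx16 were below that level. With Benjamini-Hochberg adjustment 0 of the 66 were under 0.05 (limma), where 0.0198% of all genes tested were. At an unadjusted p under 0.05, 2 of the 66 members passed by limma (3.03%), against 4.70% of all genes tested: 1 with a higher mean in PROM1, against 2.33% of all genes, and 1 with a lower mean, against 2.36%. In the authors' deposited table none of the members' transcripts carries the mark of significance, which 0.204% of all transcripts do. The smallest p of any member transcript in the authors' deposited table was 0.0791, for Snx13, with q = 0.865, so 0 were under 0.05, against 4.71% of all transcripts in the authors' deposited table. An exact permutation test of 2 libraries against 2 cannot give a two-sided p under 0.333.

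Lower means in PROM1 were found for 40 of the 66 tested members (60.6%), against 53.5% of all genes tested, and the median log2 change was -0.067, against -0.029 over all genes tested. Both PROM1 libraries were under both controls for 14 members (21.2%, against 17.5% of all genes) and above them for 7 members (10.6%, against 16.5%). For 40 members the whole 95% interval lay within 2-fold, and for the other 26 it reached a 2-fold difference. The median gap between replicate libraries was 0.37 (control) and 0.31 (PROM1) on the log2 scale, against 0.30 and 0.31 over all genes tested. The median absolute change between groups was 0.19, against 0.23 over all genes tested. A gap lies between single libraries and a change between group means, so their sizes cannot be compared directly.

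**Figure D1:**
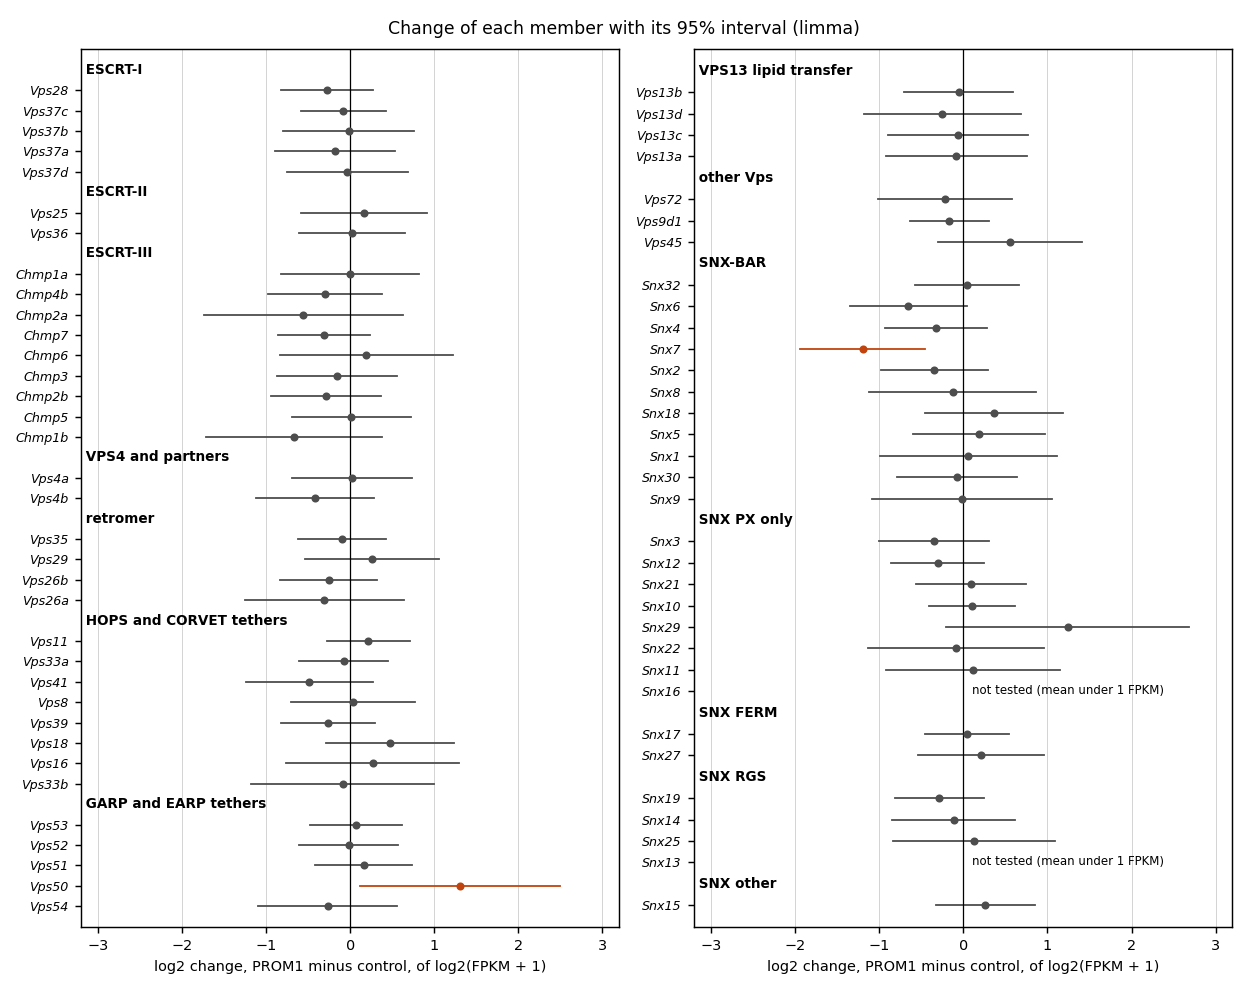
Log2 change of each tested member between PROM1 and control cultures on the log2(FPKM + 1) scale (x axis), with the 95% interval of limma as a bar, ordered by role. Coloured members have an unadjusted p under 0.05: Snx7 at -1.20 and Vps50 at 1.30 are the 2 whose interval lies on 1 side of 0. Vps50 reached the level for testing only through the PROM1 group.

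FPKM is a level per length, and by library FPKM the levels of the members spanned more than 2 orders of magnitude. The authors' group FPKM gave another order for some members, named below. Snx3 and Vps28 alone made up a large part of the summed level. Snx3, a small nexin of a PX domain alone that helps retromer recycle the Wnt carrier Wntless, stood at 381.4 and 291.5 FPKM in control and 315.1 and 217.3 in PROM1. Vps28, a core subunit of ESCRT-I, stood at 299.1 and 370.5 FPKM in control and 307.1 and 245.0 in PROM1. Together they held 47.5% and 46.1% of the members' summed FPKM in control libraries 1 and 2 and 46.1% and 39.4% in PROM1 libraries 1 and 2.

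PROM1 library 2 was the lowest of the 4 for both of these genes. The log2 change of Snx3 was -0.35 (95% interval -1.01 to 0.31) and that of Vps28 was -0.28 (-0.82 to 0.27). The summed FPKM of all 68 members was 1432 and 1437 in control and 1349 and 1174 in PROM1. Without Snx3 and Vps28 it was 751.7 and 775.3 in control and 727.1 and 712.1 in PROM1. Both sums were lower in the PROM1 libraries, but the FPKM of all genes also differed between libraries. As a share of all FPKM the 68 members held 0.398% and 0.374% in control and 0.378% and 0.310% in PROM1, and the groups overlapped.

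Below these, 12 members had a mean between 20 and 100 FPKM, 27 between 5 and 20 FPKM, 25 between 1 and 5 FPKM and 2 under 1 FPKM. The median of tested members was 9.40 FPKM, against 6.93 FPKM over all genes tested, and 36 of the 66 lay above the median level of genes tested. The next highest were Vps72 with a mean of 60.3 FPKM, Vps25 with 38.9, Vps53 with 38.0 and Vps9d1 with 31.2 FPKM. Vps72 shares the naming but is a subunit of chromatin complexes that deposit histone H2A.Z, and it stood at 68.2 and 59.2 FPKM in control and 73.5 and 40.3 in PROM1, with overlapping groups.

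**Figure D2:**
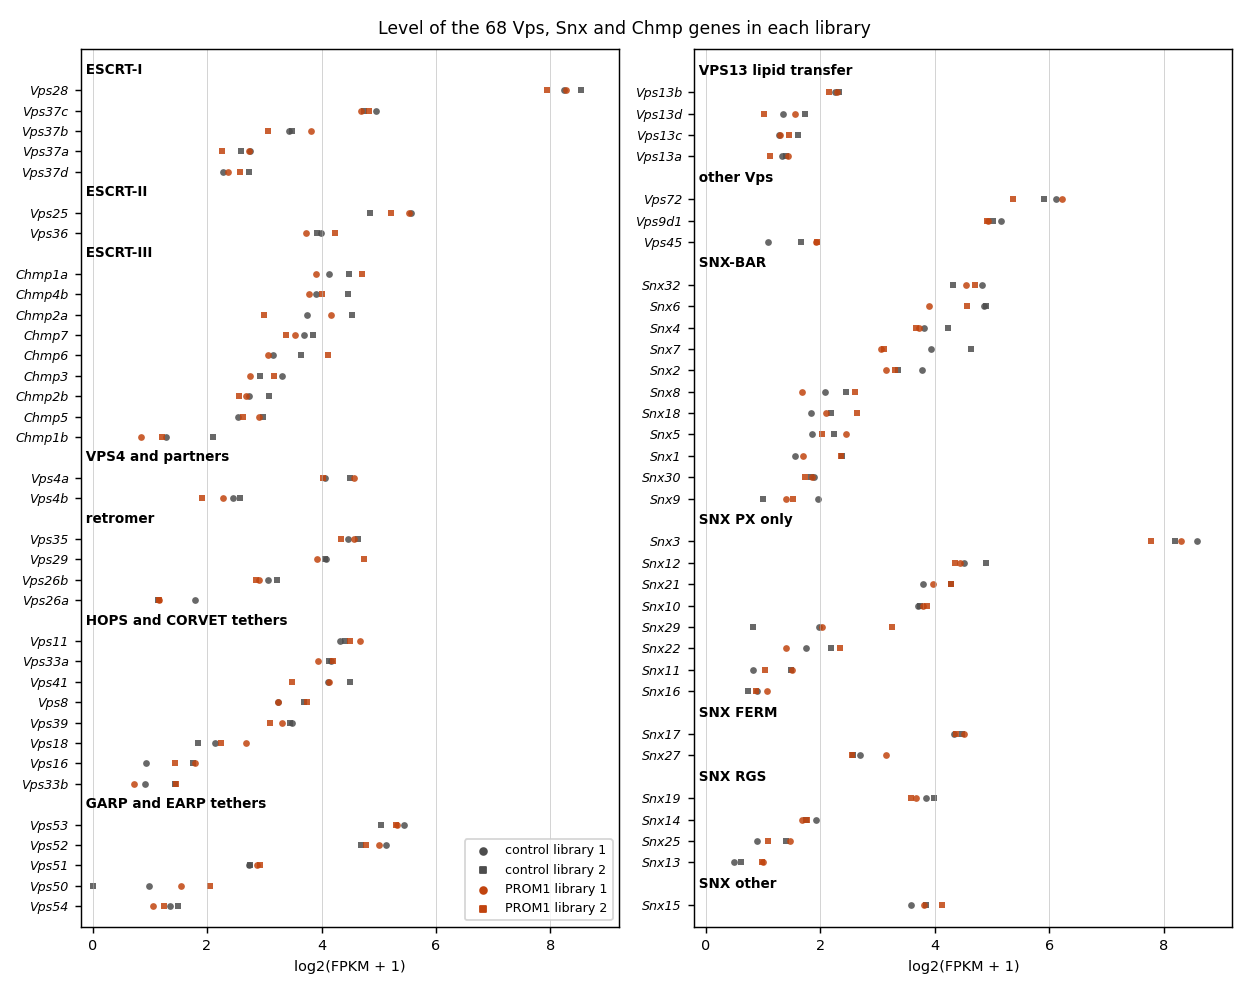
Level of each of the 68 members as log2(FPKM + 1) (x axis) in the 4 libraries, ordered by role; grey marks are control and orange marks PROM1 libraries, circles library 1 and squares library 2. Snx3 and Vps28 stand far to the right of all others, and for most members the marks of both groups overlap.

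Among the nexins that carry a BAR domain, which bends membrane into tubules, Snx7 was the member with the lowest p. Snx7 stood at 14.3 and 23.9 FPKM in control libraries 1 and 2 and at 7.37 and 7.65 in PROM1 libraries 1 and 2. Both PROM1 libraries were below both control libraries, and the control libraries differed from each other while the PROM1 libraries nearly coincided. The log2 change was -1.20 ± 0.30 (SE), with a limma unadjusted p = 0.00839 and an adjusted p = 0.939 over all genes. The unadjusted limma p lay between 0.00519 and 0.0403 over 12 other settings of the gene-level fit, including the fits without each library, and the adjusted p between 0.645 and 1.00. Without control library 2 the log2 change was -0.84. The summed levels of the listed glial, macrophage, and endothelial and pericyte markers given above were also lower in both PROM1 libraries and that of the fibroblast markers was higher in both. Of the 9 sensory neuron markers 6 had lower and 3 higher means. The part of any of these cell types in the Snx7 value was not tested.

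The listed Snx7 transcripts did not split alike between libraries. The table holds 1 transcript with 9 exons and 1 with 8, and in the GENCODE M21 annotation they differ by exon 8 of the longer one, a coding exon of 153 nt that keeps the reading frame, and at both ends. The exon is shown in full because only reads on it, on its junctions or at the transcript ends separate the transcripts. It lies at chr3:117800841-117800993 (GRCm38, minus strand) and reads, 5′ to 3′ on the coding strand, with all letters belonging to the part that differs:

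Snx7 exon 8: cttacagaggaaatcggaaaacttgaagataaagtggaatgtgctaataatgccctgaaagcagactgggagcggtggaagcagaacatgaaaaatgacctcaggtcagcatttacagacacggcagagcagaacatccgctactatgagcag

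The Snx7 transcript with this exon was listed at 14.3, 0.000288, 7.37 and 6.91 FPKM in control libraries 1 and 2 and PROM1 libraries 1 and 2. The Snx7 transcript without it was listed at 0.000792, 23.9, 0.000730 and 0.741 FPKM in the same order. Control library 2 was thus given almost wholly to the transcript without the exon and the other 3 libraries mostly to the one with it. The split did not follow the groups. Tested one by one, neither Snx7 transcript had a limma unadjusted p under 0.05, and their log2 changes had opposite signs. Without the exon the log2 change was -1.92 (limma unadjusted p = 0.327, adjusted p = 0.923). With the exon it was 1.06 (limma unadjusted p = 0.499, adjusted p = 0.947), where control library 2 was at almost 0.

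FPKM divides by length, and the Snx7 transcripts are 2021 and 1588 nt long in GENCODE, where the start of the shorter one is marked as incomplete, so the division between them bears on the sum. Multiplied back by these lengths, the Snx7 values (FPKM times length in kilobases) came to 28.9 and 38.0 in control and 14.9 and 15.1 in PROM1, a log2 ratio of means of -1.15. Both PROM1 values thus lay below both control values before division by length too. This ratio of means has no pseudocount, so its size cannot be set directly against the limma log2 change of -1.20. In the authors' deposited table the Snx7 transcripts had group values of 8.39 against 7.27 FPKM (with the exon) and 16.7 against 2.82 FPKM (without it), at q = 0.966 and q = 0.884.

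In human cells SNX7 pairs with SNX4, which can also pair with SNX30, to return cargo from early endosomes to the recycling compartment and to serve autophagy. Snx4 stood at 13.0 and 17.9 FPKM in control and 12.2 and 11.7 in PROM1, and Snx30 at 2.70 and 2.57 FPKM in control and 2.60 and 2.32 in PROM1. Both PROM1 libraries lay below both controls for Snx4, by a log2 change of -0.33 (95% interval -0.93 to 0.28), and the Snx30 groups overlapped (log2 change -0.072). The ratio of Snx4 to Snx7 was 0.911 and 0.746 in control and 1.65 and 1.53 in PROM1, so Snx7 was the higher of this pair in both control libraries and Snx4 in both PROM1 libraries.

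The nexins that form the tubular coat with retromer cargo pair SNX1 or SNX2 with SNX5, SNX6 or the neuronal SNX32. Snx6, whose p came next after those of Snx7 and Vps50 and which was picked for description after its values were seen, stood at 28.1 and 28.9 FPKM in control and at 13.8 and 22.6 in PROM1. Both PROM1 libraries were lower, PROM1 library 1 by more. Its log2 change was -0.66 ± 0.28 (SE), with a limma unadjusted p = 0.0597 and an adjusted p = 0.939, and without PROM1 library 1 the log2 change was -0.32. Snx2 was at 12.7 and 9.28 FPKM in control and 7.82 and 8.90 in PROM1 (log2 change -0.34, 95% interval -0.98 to 0.29). Snx32 had a mean nearly equal to that of Snx6, with 27.3 and 19.0 FPKM in control and 22.2 and 25.0 in PROM1, and the groups overlapped (log2 change 0.047).

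The remaining BAR nexins were at lower levels and their groups overlapped. Snx1, Snx5, Snx8, Snx9 and Snx18 had means of 1.86 to 3.75 FPKM and log2 changes of -0.13 to 0.37, the highest being that of Snx18, which acts with Snx9 in endocytic membrane shaping. Of the 11 BAR nexins tested, 7 had lower and 4 higher means in PROM1, and both PROM1 libraries lay below both controls for 4 (Snx2, Snx4, Snx6 and Snx7) and above them for 0, where 17.5% and 16.5% of all genes tested did so.

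The nexins with a PX domain and no BAR, FERM or RGS domain included the largest positive log2 change among Snx genes. Snx29 stood at 2.94 and 0.776 FPKM in control and 3.07 and 8.58 in PROM1. Although both PROM1 values exceeded both control values, PROM1 library 1 was barely above control library 1. The log2 change was 1.24 ± 0.58 (SE), with a limma unadjusted p = 0.0801 and an adjusted p = 0.939, and it was 0.62 without PROM1 library 2, 0.66 without control library 2 and at least 1.81 without either of the others. Snx10, mutated in a human osteopetrosis, was nearly constant at 12.1 and 12.4 FPKM in control and 12.8 and 13.6 in PROM1. Snx12, a relative of Snx3, was at 21.9 and 28.7 FPKM in control and 20.8 and 19.4 in PROM1, lower in both PROM1 libraries by a log2 change of -0.31. Snx11, Snx21 and Snx22 had log2 changes between -0.091 and 0.12 with overlapping groups. Snx16 was at 0.845 and 0.660 FPKM in control and 1.10 and 0.823 in PROM1.

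The FERM-domain nexins bind cargo tails directly. Snx17, which recycles integrins and lipoprotein receptors, was at 19.1 and 21.2 FPKM in control and 21.9 and 19.7 in PROM1 (log2 change 0.042, 95% interval -0.46 to 0.55). Snx27, which links PDZ-binding cargo to retromer, was at 5.50 and 4.91 FPKM in control and 7.83 and 4.84 in PROM1, with PROM1 library 1 alone above the rest. In the related group of Snx13, Snx14, Snx19 and Snx25, Snx19 was at 13.3 and 14.9 FPKM in control and 11.8 and 10.9 in PROM1, lower in both (log2 change -0.29, 95% interval -0.82 to 0.24). Snx13, below the level for testing, was at 0.399 and 0.534 FPKM in control and 0.985 and 0.975 in PROM1, higher in both. Snx14 and Snx25 had log2 changes of -0.11 and 0.12. Snx15, a nexin with a second domain that binds ESCRT-III, was at 10.96 and 13.3 FPKM in control and 13.1 and 16.5 in PROM1, with overlapping groups (log2 change 0.26, 95% interval -0.33 to 0.85).

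None of the ESCRT members passed the test. On the log2(FPKM + 1) scale all 5 ESCRT-I members had lower means (log2 change -0.28 to -0.019) with overlapping groups. The mean FPKM of Vps37b was not lower, at 9.98 in control and 10.2 in PROM1. Vps37c was the highest of the 4 Vps37 subunits, which are alternatives to one another in the complex, at 29.98 and 25.7 FPKM in control and 24.9 and 27.6 in PROM1. Vps37a, Vps37b and Vps37d had means of 5.04, 10.1 and 4.63 FPKM. In ESCRT-II, Vps25 was at 46.3 and 27.9 FPKM in control and 45.4 and 36.0 in PROM1 (log2 change 0.17, 95% interval -0.58 to 0.91) and Vps36 had a log2 change of 0.023.

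Of the 9 Chmp genes 7 had lower means on the log2(FPKM + 1) scale, with a median log2 change of -0.29. The 7 include Chmp1a, whose mean FPKM was 18.9 in control and 19.5 in PROM1. For 3 Chmp genes (Chmp1b, Chmp2b and Chmp7) both PROM1 libraries lay below both controls. Over all genes tested 53.5% had lower means and 17.5% lay below both controls. Chmp1b, whose protein recruits the microtubule-severing enzyme spastin, was at 1.44 and 3.27 FPKM in control and 0.785 and 1.31 in PROM1. It had the largest log2 change of the Chmp genes, -0.67 ± 0.42 (SE), at a low level, with a limma unadjusted p = 0.166 and an adjusted p = 0.939. Chmp7, which also acts in sealing the nuclear envelope, was at 11.9 and 13.4 FPKM in control and 10.6 and 9.37 in PROM1. Chmp2b, mutated in a familial human frontotemporal dementia, was at 5.61 and 7.48 FPKM in control and 5.38 and 4.89 in PROM1.

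Chmp1a had the highest mean of the Chmp genes over the libraries and nearly equal group means. It stood at 16.6 and 21.2 FPKM in control and 13.9 and 25.1 in PROM1 (log2 change -0.0031, 95% interval -0.83 to 0.82). By the authors' group FPKM Chmp4b was higher, at 26.9 in control and 19.5 in PROM1, against 18.7 and 19.4 for Chmp1a. Chmp2a varied between libraries of both groups, at 12.4 and 22.1 FPKM in control and 16.9 and 6.97 in PROM1. Chmp3, Chmp4b, Chmp5 and Chmp6 had log2 changes between -0.29 and 0.19. The ATPase gene Vps4a was at 15.7 and 21.5 FPKM in control and 22.7 and 15.3 in PROM1, while Vps4b was at 4.45 and 4.94 FPKM in control and 3.85 and 2.74 in PROM1. Only the Vps4b groups were apart, with a log2 change of -0.42 (95% interval -1.12 to 0.29).

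Retromer is built of VPS35, VPS29 and 1 of the VPS26 proteins. Vps35, mutated in a familial form of human Parkinson disease, was steady at 20.9 and 24.0 FPKM in control and 22.7 and 19.3 in PROM1 (log2 change -0.094, 95% interval -0.62 to 0.43). Vps26b was at 7.38 and 8.27 FPKM in control and 6.495 and 6.26 in PROM1, lower in both (log2 change -0.26). Vps26a was at 2.43 and 1.21 FPKM in control and 1.22 and 1.22 in PROM1, so control library 1 alone stood above the rest. Vps29 over both listed transcripts was at 15.9 and 15.7 FPKM in control and 14.1 and 25.8 in PROM1, with a log2 change of 0.26. The Vps29 transcript that carries the symbol in its description was at 7.09, 0.3604, 0.968 and 19.1 FPKM in the same order, which by itself gives a log2 change of 0.92.

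HOPS tethers late endosomes to lysosomes and CORVET tethers early endosomes, and they share the core Vps11, Vps16, Vps18 and Vps33a. Vps11 was at 18.9 and 20.4 FPKM in control and 24.4 and 21.7 in PROM1, and Vps18 at 3.40 and 2.59 FPKM in control and 5.43 and 3.73 in PROM1. These 2 core genes were higher in both PROM1 libraries, by log2 changes of 0.22 (95% interval -0.28 to 0.72) and 0.47 (-0.29 to 1.23). Vps16 and Vps33a had overlapping groups and log2 changes of 0.27 and -0.078. Of the subunits that belong to HOPS, Vps41 was at 16.2 and 21.5 FPKM in control and 16.6 and 10.2 in PROM1, PROM1 library 2 alone being low (log2 change -0.49), and Vps39 at 10.2 and 9.94 FPKM in control and 8.89 and 7.53 in PROM1, lower in both (log2 change -0.27). Vps33b, which works with VIPAS39, had a mean of 1.25 FPKM and a log2 change of -0.088. The CORVET subunit Vps8 was even between groups, at 8.47 and 11.9 FPKM in control and 8.49 and 12.5 in PROM1 (log2 change 0.029).

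GARP tethers vesicles that return from endosomes to the Golgi, and EARP acts on recycling endosomes. They share Vps51, Vps52 and Vps53 and differ in the fourth subunit, Vps54 in GARP and Vps50 in EARP. Vps50 was listed at 0.971 and 0.000521 FPKM in control libraries 1 and 2 and at 1.91 and 3.13 in PROM1 libraries 1 and 2. It was higher in both PROM1 libraries, and control library 2 was at almost 0. The log2 change was 1.30 ± 0.47 (SE), with a limma unadjusted p = 0.0368 and an adjusted p = 0.939, on a mean level of 1.50 FPKM that is low among genes tested. Vps50 passed the filter on level through the PROM1 group. Without control library 2 its log2 change was 0.81, with a limma unadjusted p = 0.133 and an adjusted p = 1.00. Over 10 other settings the limma adjusted p of Vps50 lay between 0.693 and 1.00, and without PROM1 library 2 its mean was under 1 FPKM and it was not tested. In the authors' deposited table Vps50 had 0.586 against 3.47 FPKM, at q = 0.865.

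Vps54 had a lower mean in PROM1, at 1.56 and 1.80 FPKM in control and 1.08 and 1.37 in PROM1 (log2 change -0.27, 95% interval -1.10 to 0.56). Vps54 was thus listed above Vps50 in both control libraries and below it in both PROM1 libraries, all at under 4 FPKM. The shared subunits were steadier. Vps53 was at 42.7 and 31.9 FPKM in control and 39.0 and 38.4 in PROM1, Vps52 had a log2 change of -0.019, and Vps51 was at 5.68 and 5.72 FPKM in control and 6.34 and 6.63 in PROM1, higher in both by a log2 change of 0.16.

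The Vps13 genes code for very large proteins that carry lipids between membranes, and defects of each cause a human neurological disease. All 4 had lower means, with log2 changes of -0.25 to -0.058 and overlapping groups. Vps13b was the highest by library FPKM, at 3.75 and 3.998 in control and 3.91 and 3.46 in PROM1. Vps13d had the largest difference, at 1.53 and 2.34 FPKM in control and 1.93 and 1.03 in PROM1. By the authors' group FPKM Vps13d was the higher, at 5.00 in control and 4.52 in PROM1, against 4.42 and 4.36 for Vps13b. Vps45, which binds syntaxins in fusion at early endosomes, was at 1.13 and 2.16 FPKM in control and 2.80 and 2.82 in PROM1, higher in both (log2 change 0.56 ± 0.34 SE, limma unadjusted p = 0.159, adjusted p = 0.939). Vps9d1 was at 34.8 and 31.4 FPKM in control and 29.6 and 29.0 in PROM1, lower in both by a log2 change of -0.17.

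Related subunits were also set against each other within each library. One paralog dominated its pair in 4 of 4 libraries in most cases. Vps4a exceeded Vps4b by 3.52 to 5.90 times, Vps26b exceeded Vps26a by 3.03 to 6.86 times, Vps33a exceeded Vps33b by 9.62 to 21.8 times and Chmp1a exceeded Chmp1b by 6.49 to 19.1 times. Snx6 exceeded Snx5 by 3.12 to 10.8 times and Snx2 exceeded Snx1 by 2.16 to 6.56 times. Vps37c exceeded Vps37b by 1.91 to 3.75 times. The ratio of Vps35 to Vps26b kept the narrowest range of those looked at, 2.83 to 3.50. The pairs were picked with the values known, so these ratios are a description. They hold for library FPKM and can differ by the authors' group FPKM. There Vps33a was at 17.5 in control and 16.8 in PROM1, and Vps33b at 3.33 and 2.99, a smaller excess.

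**Figure D3:**
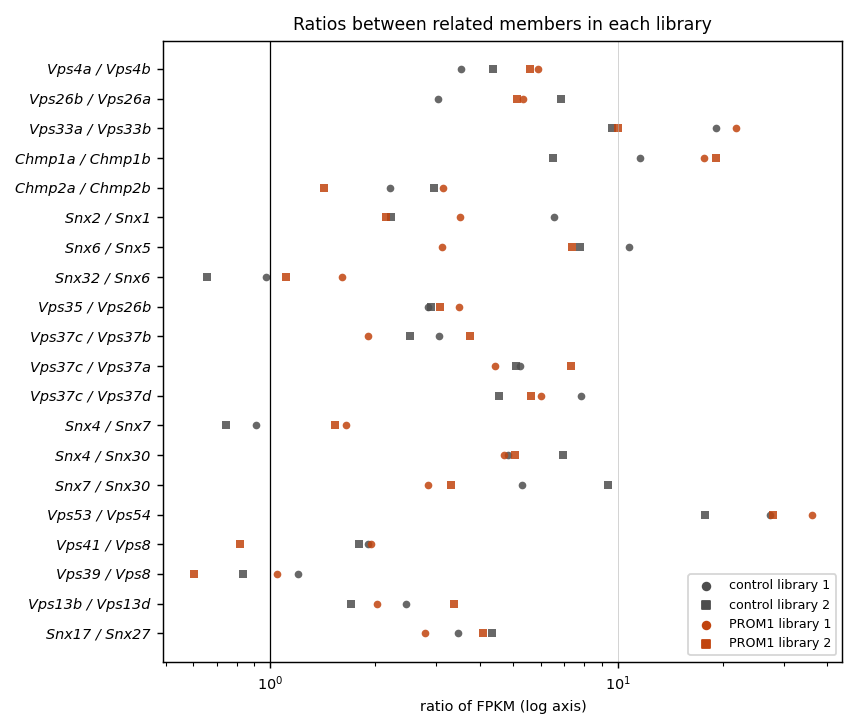
Ratio of FPKM between related members (x axis, log scale) in each library; grey marks are control and orange marks PROM1 libraries, circles library 1 and squares library 2, and the line marks a ratio of 1. Most pairs keep 1 side in all 4 libraries; Snx4 to Snx7 is below 1 in both control libraries and above 1 in both PROM1 libraries.

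For 7 of the members more than 1 transcript was listed, 15 transcripts in all, and in several of them the share of each transcript swung between libraries while the gene sum did not. The Vps8 transcripts differ inside the coding sequence by an exon of 90 nt in one and an exon of 6 nt in the other, and also in length outside these exons. The longer exon is shown as the largest coding part that tells them apart. It lies at chr16:21540019-21540108 (GRCm38, plus strand) and keeps the reading frame; all letters belong to the part that differs:

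Vps8 exon 34: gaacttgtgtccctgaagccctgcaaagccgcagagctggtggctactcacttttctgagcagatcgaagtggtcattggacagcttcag

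The Vps8 transcript with the exon was listed at 1.17 and 11.9 FPKM in control and 8.48 and 0.000193 in PROM1, and the Vps8 transcript without it at 7.30 and 0.00330 FPKM in control and 0.00200 and 12.5 in PROM1. Each group thus held 1 library of each kind, while the highest gene sum of Vps8 was 1.47 times the lowest. Snx10 transcripts have coding sequences of equal length and differ in the first exon, and their values were split likewise. Its transcript with the downstream first exon was listed at 7.63, 0.000565, 12.6 and 0.0159 FPKM in control libraries 1 and 2 and PROM1 libraries 1 and 2, and the one with the upstream first exon at 4.49, 12.4, 0.220 and 13.5 FPKM, whereas the highest Snx10 sum was 1.12 times the lowest.

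Vps37d was split differently in 1 library alone. The Vps37d transcript of 4 exons was listed at 3.201 FPKM in control library 1 and under 0.00021 FPKM elsewhere, and that of 2 exons at 0.621 and 5.64 FPKM in control and 4.15 and 4.93 in PROM1. The shorter transcript lacks coding exons of the longer one. The reads were 50 nt long, and the values of single transcripts rest on how Cufflinks divided them. None of the 13 transcripts of these 7 genes that reached 1 FPKM had a limma unadjusted p under 0.05 when tested one by one.

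**Figure D4:**
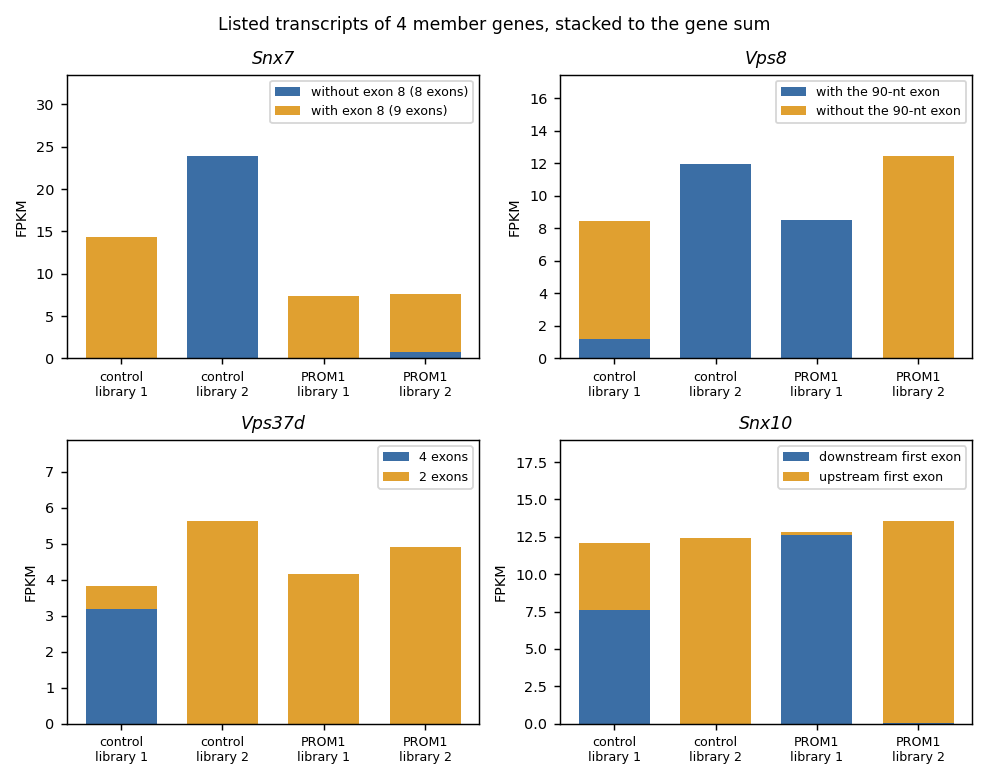
FPKM of each listed transcript (colours), stacked to the gene sum (y axis), in the 4 libraries for Snx7, Vps8, Vps37d and Snx10. For Vps8 and Snx10 the main colour changes between libraries in both groups, while the sums stay within 1.47-fold and 1.12-fold. For Snx7 and Vps37d it changes between the control libraries alone. The Snx7 sums are 14.3 and 23.9 FPKM in control and 7.37 and 7.65 in PROM1.

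Genes of the same machinery whose symbols do not follow the naming were read from a list of 45, of which 43 were listed and 41 tested. None had an unadjusted p under 0.05 (limma), against 4.70% of all genes tested, and adjusted p under 0.05 was reached by 0; 19 had higher and 22 lower means, and the median log2 change was -0.011. Both PROM1 libraries lay below both controls for 6 of these 41 (14.6%) and above them for 2 (4.88%), against 17.5% and 16.5% of all genes tested. The smallest limma p, 0.102, was that of Commd5, a subunit of the Commander complex that recycles cargo, at 6.84 and 4.06 FPKM in control and 3.79 and 1.85 in PROM1. Its relative Commd6 was at 0.901 and 6.94 FPKM in control and 0.0723 and 0.896 in PROM1 (log2 change -1.45). Control library 2 alone stood far above the rest, and Commd6 reached the level for testing only through the control group. Of 12 tested genes of the Commander complex 10, Commd6 included, had lower means, against 53.5% of all genes tested. Their median log2 change was -0.097, against -0.029 over all genes tested. Commd2 and Commd8 were listed but not tested.

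Ubap1, an ESCRT-I subunit that selects ubiquitinated receptors, was at 8.38 and 9.92 FPKM in control and 7.90 and 4.61 in PROM1, and Vta1, the VPS4 cofactor, at 56.4 and 48.1 FPKM in control and 46.0 and 40.9 in PROM1. Both were lower in both PROM1 libraries, with log2 changes of -0.52 (95% interval -1.29 to 0.25) and -0.26 (-0.75 to 0.23). The other listed ESCRT-I to ESCRT-III and VPS4 partner genes had higher means and overlapping groups. Snf8, an ESCRT-II subunit, was at 6.09 and 1.69 FPKM in control and 3.61 and 13.3 in PROM1 (log2 change 0.90, 95% interval -0.85 to 2.64), and Tsg101, Mvb12a, Mvb12b, Ist1 and Pdcd6ip had log2 changes between 0.015 and 0.12. The 6 WASH genes, which polymerise actin on endosomes, had log2 changes between -0.37 and 0.10, the 5 genes of the VPS34 kinase complexes between -0.18 and 0.27, and the 3 ESCRT-0 genes between -0.15 and 0.14. The 5 tested sorting receptors, cargo carriers of these routes, all had higher means, by log2 changes of 0.0061 to 0.31.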

How the data were processed

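Polyadenylated RNA of 4 libraries, 2 control and 2 PROM1, was grouped by sample titles. Per the submitters' processing notes CASAVA, TopHat2 and mm9 were used; the sources used here do not give the annotation, the use of strand or the comparison tool. Per the file headers, the authors computed FPKM per library with Cufflinks and 1 FPKM per group, which is not the mean of the libraries. The deposited p-values and q-values, the −log10 of p, the log2 ratio with 0.1 added and a second ratio written as a very large number where a group is 0 (a fold column of another kind) belong to their comparison. Only transcripts of status OK are listed.

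Transcripts with a missing value (39 of 14236; none of a member) were left out, and FPKM was summed per symbol. Low values showed no steps of whole reads: at most 2.26% of 172 to 269 transcripts had the same log2 ratio (to 0.01) in any pair of libraries, so depth is unknown and no count test was run. The test, limma 3.58.1 under R 4.3.3 with a variance trend, ran on log2(FPKM + 1) of genes averaging 1 FPKM or more. It was adjusted by Benjamini-Hochberg over all genes. The method was also run on simulated data with independent normal noise, from which nothing is concluded here. Intervals are limma's. Alternatives changed the pseudocount, level filter, scaling, block, transcript summing, small RNA records, trend and libraries. Values by library are given for members of unadjusted p under 0.05, for the highest and the most different member of each role group, and for other members where the groups were apart or a comparison within a complex needed them; these last were picked after their values were seen. Members, lists and roles were chosen with earlier results of these data known. Sequences are from GENCODE M21 (GRCm38), matched by RefSeq accession; the deposited values are on mm9 and no coordinates were converted. Besides those given, 1 marker and 1 exon sequence are not reported here.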

Additional observations from a re-analysis of the deposited data

How the results depend on the processing

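No member had a limma adjusted p under 0.05 in any of the 13 other settings, fits without each library included. The count of members with an unadjusted p under 0.05, which was 2, was 1 with a pseudocount of 0.1 and 1 with a mean level of at least 5 FPKM, where Snx7 remained, and 0 with each transcript tested by itself; leaving out each library gave 1 to 3, the 1 being without control library 2. The genes called over the whole table, which were 2, became 0 with each transcript tested by itself and 0 without microRNA and small nucleolar RNA records, and 3 to 16 without each library in turn, the 16 being without PROM1 library 2. The median log2 change of tested members was -0.067 and lay between -0.14 and -0.031 without each library, the former without control library 1. With the library number as a replicate block, which 2 pairs cannot show to be a real pairing (correlation of deviations 0.139), 2 genes and 0 members were called, and the members with an unadjusted p under 0.05 were Snx6 (p = 0.0368) and Snx7 (p = 0.00614), while Vps50 had p = 0.0518 (limma). Of 25 members followed, 13 kept the sign of their log2 change in every gene-level setting in which they were tested. The fit of each transcript by itself is not part of this count. For 12 the sign turned: Chmp1a with libraries centred on the median (0.011) or quantile normalization (0.037), and others without 1 library, with ranges of -0.41 to 0.40 for Chmp1a, -0.031 to 0.12 for Snx17, -0.087 to 0.51 for Snx27, -0.20 to 0.30 for Snx32, -0.13 to 0.011 for Vps13b, -0.52 to 0.012 for Vps13d, -0.19 to 0.52 for Vps25, -0.63 to 0.011 for Vps26a, -0.21 to 0.018 for Vps35, -0.25 to 0.29 for Vps4a, -0.14 to 0.27 for Vps53 and -0.64 to 0.21 for Vps72. The cause was not tested. Vps29 from 1 transcript and the settings of Snx6 were chosen after seeing the data. With no counts, the depth behind each value is unknown, and 2 libraries a group limit the precision.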
